A study of Homo sapiens with 18 samples.

Results

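The comparison described here sets 3 arrays of 786-O cells labelled VHL+/+ KDM5C shRNA against 3 arrays labelled VHL-/- KDM5C shRNA, 6 of the 18 arrays of the experiment, and asks which genes changed when VHL was present in cells depleted of KDM5C. 786-O is an established line of clear cell renal carcinoma that lacks functional VHL protein. The group called VHL-/- is this line, and the group called VHL+/+ is the same line with VHL re-expressed. Both groups carried an shRNA against KDM5C as a stable knockdown and received no further treatment, so nothing in this comparison is a cell with normal KDM5C. The other 12 arrays, 3 in each of 4 groups, were VHL-/- and VHL+/+ cells with a scrambled shRNA (SCR) or with an shRNA against PBRM1. A single hairpin was used against each gene, and the labels do not say whether the replicates were separate cultures, so the p-values below measure the spread between these arrays, which may be technical.

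VHL is the substrate-binding part of a ubiquitin ligase that marks the hydroxylated alpha subunits of the hypoxia-inducible factors (HIF) for destruction. Cells without it keep HIF active at normal oxygen, and HIF targets such as glucose transporters, angiogenic peptides and the HIF prolyl hydroxylase EGLN3 are transcribed at high levels. In 786-O cells the factor that accumulates is HIF2α, the product of EPAS1. KDM5C is a demethylase of histone H3 lysine 4 that is mutated in a small share of clear cell renal carcinomas.

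The arrays were Illumina HumanHT-12 V4 BeadChips, and the table holds 1 log2 value for each of 13141 genes and each array, with a lowest value of 6.27, a median of 7.65 and a highest value of 14.66. In each group replicates 1 and 2 shared chip 1 and replicate 3 was on chip 2. At adjusted p under 0.05 a chip difference was found in 3130 genes, so the chip was a term of the limma model. Pearson's r across genes was 0.978 to 0.99 between KDM5C shRNA arrays of the same group and 0.977 to 0.988 between arrays of the 2 VHL groups. A difference below is VHL+/+ minus VHL-/- on the log2 scale with its standard error (n = 3 arrays in each group). A gene was called when its adjusted p in limma was under 0.05 and its fold change at least 1.5.

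KDM5C itself has no row in the table, so its knockdown could not be checked here. The VHL signal was 8.062, 7.986 and 8.002 on the VHL-/- arrays and 7.958, 7.950 and 8.109 on the VHL+/+ arrays. These values overlapped (difference -0.01 ± 0.09, adjusted p = 0.976), so the VHL transcript does not tell the groups apart. EPAS1 was 9.45, 9.30 and 10.68 on the VHL-/- arrays and 10.28, 9.59 and 10.18 on the VHL+/+ arrays (difference 0.21 ± 0.21, adjusted p = 0.732), and PBRM1 was 7.40, 7.52 and 7.06 on the VHL-/- arrays and 7.22, 7.41 and 7.24 on the VHL+/+ arrays (difference -0.04 ± 0.12, adjusted p = 0.931). Both overlapped between the groups. HIF1A has no row. Among 13 tubular and carcinoma markers in the table VIM lay at 13.68 to 14.14 on the 6 arrays and PAX8 at 8.20 to 8.79. CDH6 was the only marker of these called, higher with VHL (7.69% of the list, against 0.327% of all genes). The 6 leukocyte, 2 endothelial and 5 fibroblast markers in the table had no called gene. With 0.89% of all genes called in either direction, lists this short would hold few calls in any case. The mean of each of these lists lay between 6.69 and 7.31 on the 6 arrays, in the lower part of the scale.

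The upstream sequences of 4 called genes are shown first, because the results below describe targets of HIF and of interferon, whose motifs were searched in them. HIF binds the core letters ACGTG or GCGTG, and the interferon-activated complex ISGF3 binds elements with the letters TTTC, any 2 bases and TTTC again. Each sequence is the 250 bases before the start of the gene in RefSeq on GRCh38.p14, written 5′ to 3′ along the gene, with matches on either strand of the motif searched in that gene in capitals. ADM (chr11:10304823-10305072, plus strand), EGLN3 (chr14:33951075-33951324, minus strand) and DDIT4 (chr10:72273674-72273923, plus strand) were 3 HIF targets with large falls and 1 listed start each, and are searched for the HIF core. HERC5 (chr4:88456869-88457118, plus strand) was the interferon-stimulated gene with the largest called change and is searched for the interferon element.
ADM: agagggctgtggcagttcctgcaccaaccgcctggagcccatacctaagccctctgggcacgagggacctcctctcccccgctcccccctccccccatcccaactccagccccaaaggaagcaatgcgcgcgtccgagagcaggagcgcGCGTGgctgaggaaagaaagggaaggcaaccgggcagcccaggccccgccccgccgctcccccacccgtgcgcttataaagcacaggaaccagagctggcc
EGLN3: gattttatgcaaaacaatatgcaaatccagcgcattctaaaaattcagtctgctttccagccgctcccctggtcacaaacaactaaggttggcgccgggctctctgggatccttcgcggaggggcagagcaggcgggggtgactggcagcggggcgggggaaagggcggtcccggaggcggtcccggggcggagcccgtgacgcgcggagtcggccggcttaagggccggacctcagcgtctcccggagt
DDIT4: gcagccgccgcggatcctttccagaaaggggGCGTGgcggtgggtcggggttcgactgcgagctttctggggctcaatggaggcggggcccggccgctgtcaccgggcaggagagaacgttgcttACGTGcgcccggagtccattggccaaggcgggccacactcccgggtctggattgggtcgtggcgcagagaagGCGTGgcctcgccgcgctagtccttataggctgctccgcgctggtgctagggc
HERC5: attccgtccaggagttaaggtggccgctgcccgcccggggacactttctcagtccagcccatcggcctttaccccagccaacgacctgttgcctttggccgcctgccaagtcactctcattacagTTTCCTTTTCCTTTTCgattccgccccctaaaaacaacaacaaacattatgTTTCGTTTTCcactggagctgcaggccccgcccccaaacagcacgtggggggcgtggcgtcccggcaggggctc
ADM held 1 HIF core starting 101 bases before its start, DDIT4 held 3, EGLN3 held none in this window, and HERC5 held 3 interferon elements, of which a pair overlap. The printed bases of HERC5 also held 3 matches of the HIF core, left in lower case, as many as those of DDIT4.

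Over windows of 300 bases, from 250 before to 50 after a start, a HIF core was found on either strand in 38 of 75 windows of called lower genes (50.7%, 50 of 74 genes with a window) and in 20 of 36 windows of called higher genes (55.6%, 25 of 43 genes). The share was 59.6% of 14469 windows of all genes tested and 48.4% of all 35116 promoters listed. The share was thus no higher in the called lower genes than in all genes tested. Of 59 windows of the HIF targets 47 held one (79.7%). Interferon elements stood in 52 of 98 windows of interferon-stimulated genes (53.1%), against 2.97% of the windows of all genes tested, and in 4 of 75 windows of called lower genes (5.33%). These letters were found by text search and are not known sites.

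With VHL re-expression 117 of 13141 genes were called in KDM5C shRNA cells, 0.89% of all tested, 74 of them lower (0.563%) and 43 higher (0.327%). The largest falls included the hypoxia genes NDRG1 and ADM and the cyclin gene CCND1, and the largest rises MMP7, CLDN2 and KCNJ16. At the adjusted p alone 205 genes were lower (1.56%) and 159 higher (1.21%), so most significant changes were smaller than 1.5-fold. All 117 called genes had differences of the same sign within chip 1 and within chip 2, against 53.2% of all genes. The calls were made from these same differences, so this agreement was largely set by the selection. In 2480 genes (18.9%) the 3 VHL+/+ arrays did not overlap the 3 VHL-/- arrays after the chip term was removed. For such a gene the exact two-sided permutation test gives p = 0.1, the smallest possible with 3 arrays against 3. That test exchanges all arrays freely and does not keep them within their chip.

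**Figure D1:**
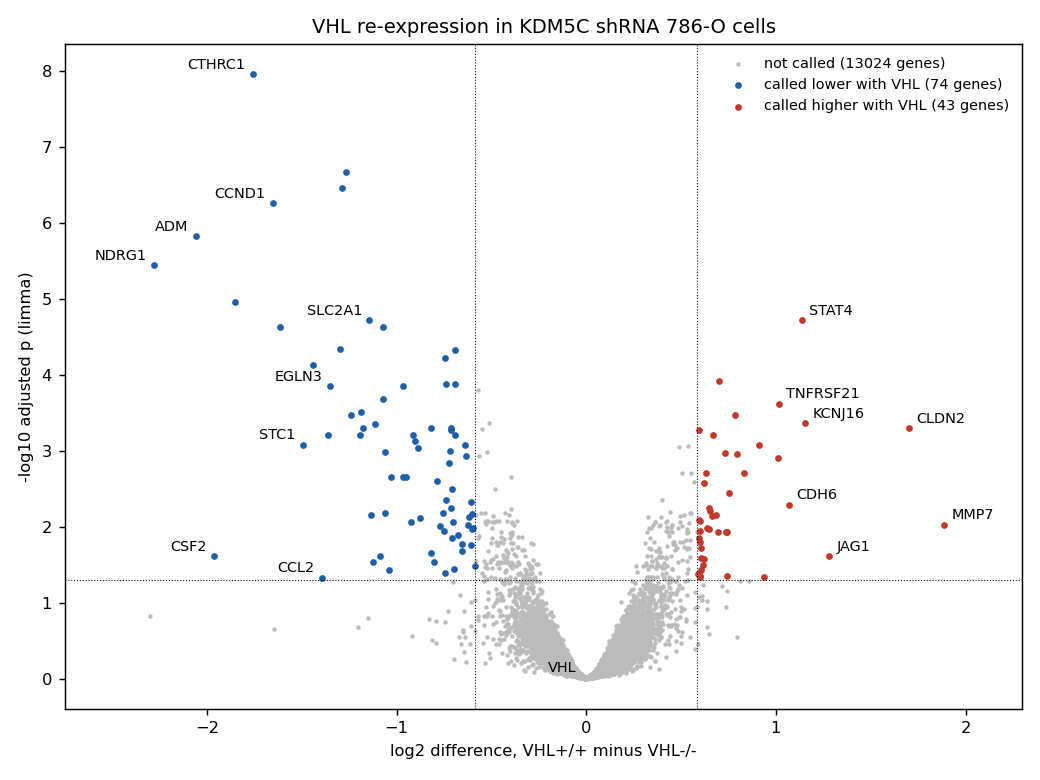
Log2 difference with VHL (x axis) against -log10 of the adjusted p in limma (y axis) for 13141 genes in KDM5C shRNA cells. Dotted lines mark a 1.5-fold change and adjusted p of 0.05, the 74 blue genes fell and the 43 red genes rose, and VHL itself lies at the foot of the plot.

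NDRG1, a stress-responsive gene induced by hypoxia, fell most among the called genes. Its log2 values were 11.25, 11.09 and 12.29 on the VHL-/- arrays and 8.41, 8.88 and 10.49 on the VHL+/+ arrays. All VHL+/+ arrays lay below all VHL-/- arrays, although the chip 2 array of each group was the highest of its group (difference -2.28 ± 0.19, 4.86-fold lower, adjusted p = 3.58e-06). ADM, which encodes the vasodilator peptide adrenomedullin, was 10.89, 11.35 and 12.09 on the VHL-/- arrays and 9.23, 9.25 and 9.67 on the VHL+/+ arrays (difference -2.06 ± 0.16, 4.17-fold lower, adjusted p = 1.51e-06). The highest VHL+/+ array of ADM was still below the lowest VHL-/- array.

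CCND1, the cyclin D1 gene whose product drives the G1 phase with its kinases, was among the brightest genes that fell, at 12.35, 12.31 and 12.74 on the VHL-/- arrays and 10.95, 10.82 and 10.67 on the VHL+/+ arrays. The groups were apart by more than 1 log2 unit (difference -1.65 ± 0.12, 3.14-fold lower, adjusted p = 5.53e-07). STC1, which encodes the secreted glycoprotein stanniocalcin, was 8.30, 8.23 and 9.79 on the VHL-/- arrays and 6.96, 7.29 and 7.58 on the VHL+/+ arrays (difference -1.50 ± 0.21, adjusted p = 8.37e-04). EGLN3, the prolyl hydroxylase that is both a regulator and a target of HIF, was 8.06, 7.80 and 8.87 on the VHL-/- arrays and 6.81, 6.82 and 7.04 on the VHL+/+ arrays. On the VHL+/+ arrays EGLN3 lay near the floor of the table, where signals have little room to fall (difference -1.35 ± 0.16, adjusted p = 1.42e-04).

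Of 58 HIF targets measured, 16 were called lower (27.6%, against 0.563% of all genes) and 0 higher, and 52 had a difference below 0, against 48.9% of all genes. The median difference of the list was -0.31, against 0.00 for all genes, and 33 of 58 had arrays apart in the lower direction, against 9.38% of all genes. Beside the genes given above, DDIT4, an inhibitor of mTOR signalling, fell by 2.36-fold (adjusted p = 3.35e-04). The glucose transporter genes SLC2A1 and SLC2A3 fell by 2.21-fold and 2.09-fold (adjusted p = 1.91e-05 and 0.00105). SLC2A1 was 11.83, 11.93 and 12.38 on the VHL-/- arrays and 10.75, 10.90 and 11.06 on the VHL+/+ arrays, with the groups apart. Others of the list that were called were ZNF395, CA12, which encodes a membrane carbonic anhydrase, the growth factor gene TGFA, the repressor gene BHLHB2, the mitophagy receptor gene BNIP3L, the calcium channel gene ITPR1 and the lipase inhibitor gene ANGPTL4, with log2 differences from -1.13 for ZNF395 to -0.59 for ANGPTL4. Without replicate 3 of VHL+/+ KDM5C shRNA, TGFA changed by -0.74 (adjusted p = 0.057), ZNF395 by -0.995 (adjusted p = 0.0507) and ITPR1 by -0.45 (adjusted p = 0.189), and none of the 3 was called. ITPR1 also lost its call without replicate 1 or 3 of VHL-/- KDM5C shRNA (-0.70 and -0.58), and ANGPTL4 without any of the 6 KDM5C shRNA arrays, at -0.52 to -0.63 with adjusted p from 0.0593 to 0.153.

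Among the regulators of the pathway there was 1 call. The HIF system list holds the ligase subunits, the hydroxylases and the HIF subunits. Of its 13 genes EGLN3 alone was called (7.69%, against 0.563% of all genes called lower), and the median difference was -0.01. EGLN1, the main oxygen-sensing hydroxylase, was -0.30 ± 0.08 (adjusted p = 0.0647). Of 18 glycolytic genes, ENO2 and PFKP were called lower (11.1%, against 0.563% of all genes) and 0 higher (0.327% of all genes), with a median of -0.11. ENO2 was 7.94, 8.03 and 8.83 on the VHL-/- arrays and 7.36, 7.37 and 7.32 on the VHL+/+ arrays (difference -0.92 ± 0.13, adjusted p = 6.26e-04), and its rise on the VHL-/- array of chip 2 made the difference there -1.51 against -0.62 on chip 1. PFKP, the platelet phosphofructokinase gene, differed by -0.61 ± 0.13 (adjusted p = 0.0174) and lost its call without replicate 3 of VHL+/+, replicate 2 of VHL-/- or replicate 3 of VHL-/- KDM5C shRNA, at -0.51, -0.55 and -0.55. LDHA, the lactate dehydrogenase gene, passed the adjusted p but not 1.5-fold (difference -0.45 ± 0.11, adjusted p = 0.0298), whereas HK2 and PGK1 were -0.28 ± 0.10 and -0.11 ± 0.09 and passed neither.

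**Figure D2:**
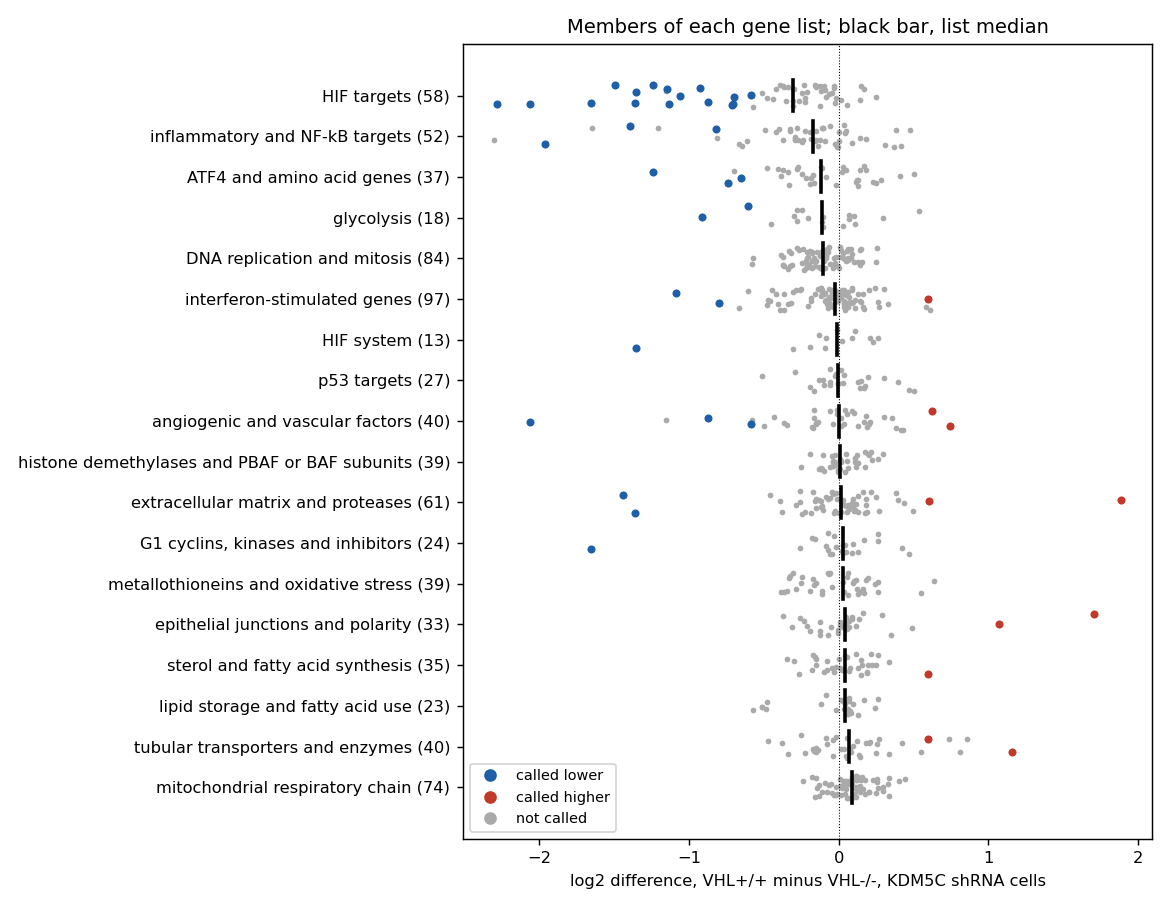
Log2 difference with VHL in KDM5C shRNA cells (x axis) for each member of 18 gene lists (rows, number of genes in the table in brackets). Blue points were called lower, red points higher, and black bars are list medians: 16 HIF targets are blue around a median of -0.31, while other medians lie between -0.17 and 0.09.

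The other falls of the first rank were not HIF targets on the list used. CTHRC1, a secreted protein with a collagen-like repeat, had the smallest adjusted p of the comparison. Its log2 values were 9.83, 10.07 and 10.37 on the VHL-/- arrays and 8.18, 8.24 and 8.58 on the VHL+/+ arrays (difference -1.76 ± 0.09, 3.38-fold lower, adjusted p = 1.10e-08), and its differences on chip 1 and chip 2 were -1.74 and -1.79. C1QL1, a secreted relative of complement C1q, was 9.11, 8.49 and 9.59 on the VHL-/- arrays and 7.17, 7.34 and 7.84 on the VHL+/+ arrays (difference -1.62 ± 0.16, adjusted p = 2.37e-05). COL6A3, a chain of collagen VI, was 9.21, 9.60 and 9.73 on the VHL-/- arrays and 8.36, 7.97 and 7.87 on the VHL+/+ arrays (difference -1.44 ± 0.16, adjusted p = 7.55e-05). In CTHRC1, C1QL1 and COL6A3 no array of a group reached the other group.

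XAGE1A, a cancer-testis antigen gene on the X chromosome, was 8.77, 8.84 and 8.10 on the VHL-/- arrays and 6.64, 6.81 and 6.69 on the VHL+/+ arrays (difference -1.85 ± 0.17, adjusted p = 1.10e-05). Its VHL+/+ values lay near the floor of the table. SPANXA1 and SPANXE, further cancer-testis antigens, fell by 2.1-fold and 1.94-fold. All 3 belong to families of near-identical copies, and which copy gave the signal is uncertain. F3, the gene of tissue factor, which starts blood coagulation, fell by 2.44-fold (adjusted p = 3.44e-07), and TMEM98 by 2.4-fold (adjusted p = 2.14e-07).

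Of 52 inflammatory and NF-kB targets 3 were called lower, against 0.563% of all genes, and 0 higher, with a median of -0.17 and 39 below 0, against 48.9% of all genes. The mean log2 value of the list was 8.56, 8.44 and 8.17 on the VHL-/- arrays and 7.84, 8.13 and 8.30 on the VHL+/+ arrays, lower with VHL on chip 1 and higher on chip 2. CSF2, which encodes the growth factor GM-CSF, was 10.73, 10.11 and 8.47 on the VHL-/- arrays and 7.17, 7.95 and 8.30 on the VHL+/+ arrays (difference -1.96 ± 0.45, adjusted p = 0.0244). Its difference was -2.86 on chip 1 and -0.17 on chip 2, and without replicate 1 or 2 of either KDM5C shRNA group it lost its call, at -1.54 to -1.96 with adjusted p from 0.0755 to 0.125. CCL2, a chemokine for monocytes, was 9.87, 9.43 and 8.96 on the VHL-/- arrays and 7.60, 8.18 and 8.30 on the VHL+/+ arrays (difference -1.39 ± 0.36, adjusted p = 0.0471), and it was called in fewer settings than any other of the 12 largest falls. Leaving out any KDM5C shRNA array but replicate 3 of VHL-/- ended its call, at -1.15 to -1.60, and so did leaving out 8 of the other 12 arrays. TNFAIP6, a hyaluronan-binding protein, differed by -0.82 ± 0.18 (adjusted p = 0.0221) and lost its call without replicate 1 or 2 of either group, at -0.68 to -0.87.

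The neutrophil chemokine gene IL8 had the largest fitted difference of all genes and was not called. It was 13.00, 12.56 and 11.49 on the VHL-/- arrays and 8.68, 9.85 and 11.62 on the VHL+/+ arrays (difference -2.30 ± 0.77, adjusted p = 0.149), with -3.52 on chip 1 and 0.13 on chip 2. CXCL1 (-1.64 ± 0.64, adjusted p = 0.221) and IL6 (-1.21 ± 0.46, adjusted p = 0.208) had the same pattern, at -2.83 and -1.94 on chip 1 and 0.72 and 0.26 on chip 2. These 3 genes were chosen after their values were seen. Chip and replicate culture cannot be told apart, since chip 2 holds only replicate 3.

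**Figure D3:**
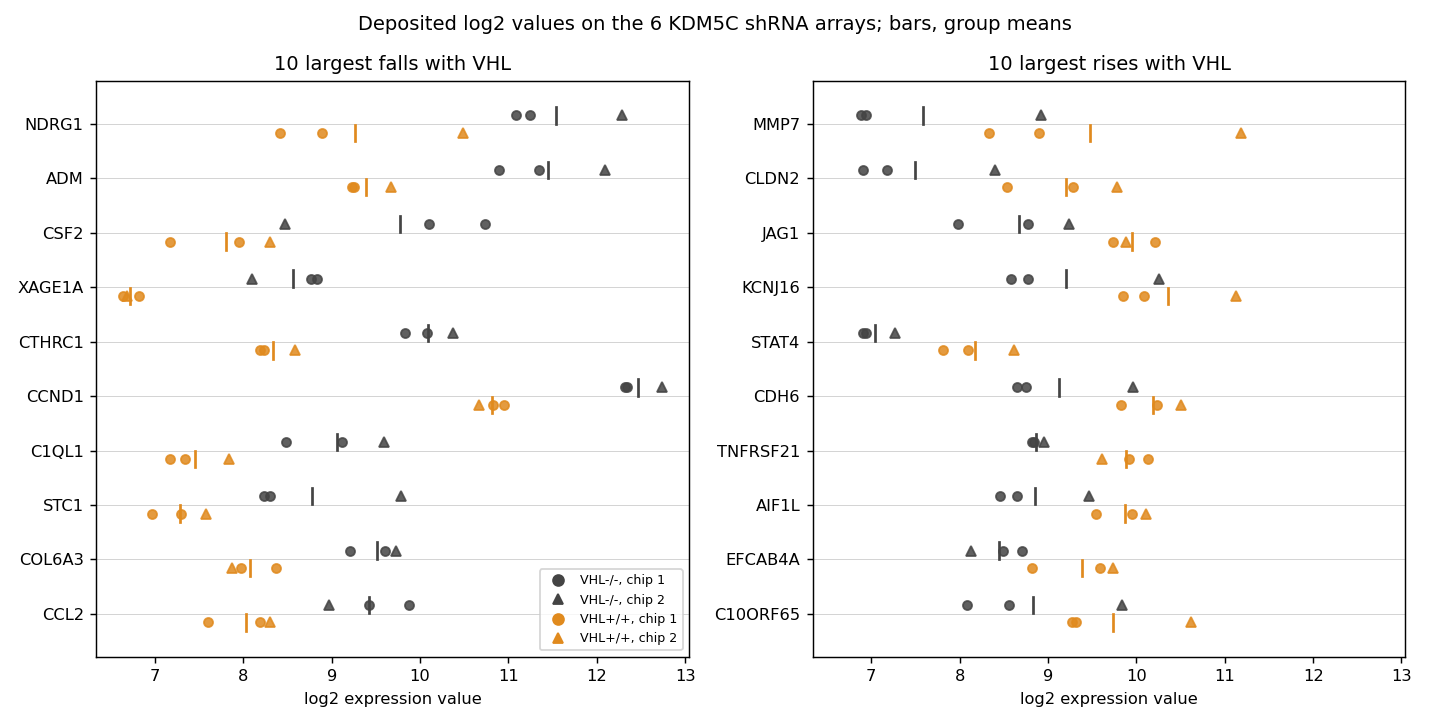
Deposited log2 values (x axis) of the 10 largest called falls (left) and the 10 largest called rises (right) on the 6 KDM5C shRNA arrays, grey for VHL-/- and orange for VHL+/+, circles for chip 1, triangles for chip 2 and bars for group means. NDRG1, ADM and CCND1 are apart on every array, whereas CSF2 converges on chip 2 and the MMP7 groups overlap because both are higher on chip 2.

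Among the 43 genes called higher, the largest rises were in MMP7 and CLDN2. MMP7, the epithelial matrix protease matrilysin, was 6.94, 6.89 and 8.92 on the VHL-/- arrays and 8.89, 8.33 and 11.19 on the VHL+/+ arrays. The groups overlapped as deposited, because both were higher on chip 2, and were apart within each chip (differences 1.70 and 2.26). The fitted difference was 1.89 ± 0.36, 3.7-fold higher, with adjusted p = 0.00946, and without replicate 3 of VHL+/+ KDM5C shRNA it was 1.65 with adjusted p = 0.0667. CLDN2, the claudin that forms a cation pore between proximal tubule cells, was 7.18, 6.90 and 8.40 on the VHL-/- arrays and 9.28, 8.54 and 9.78 on the VHL+/+ arrays (difference 1.70 ± 0.23, 3.26-fold higher, adjusted p = 5.06e-04). No CLDN2 array of a group reached the other.

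Genes of tubular transport and adhesion were also among the rises. KCNJ16, a potassium channel subunit of the basolateral tubule membrane, was 8.77, 8.58 and 10.25 on the VHL-/- arrays and 10.09, 9.85 and 11.13 on the VHL+/+ arrays (difference 1.15 ± 0.15, adjusted p = 4.37e-04). CDH6, the kidney cadherin, was 8.75, 8.65 and 9.96 on the VHL-/- arrays and 10.24, 9.83 and 10.50 on the VHL+/+ arrays (difference 1.07 ± 0.19, adjusted p = 0.00514). For KCNJ16 and CDH6 the VHL-/- array of chip 2 was above the lowest VHL+/+ array of chip 1, and each chip by itself showed a rise. CA2, the cytosolic carbonic anhydrase, rose by 1.51-fold (adjusted p = 0.0116) and lost its call without replicate 2 or 3 of either group, at 0.54 to 0.59. Of 33 junction and polarity genes CLDN2 and CDH6 were called higher and 0 lower (median 0.04), and of 40 tubular transporters and enzymes KCNJ16 and CA2 were called higher and 0 lower (median 0.07), against 0.327% of all genes called higher. Both medians were close to 0. Of the 40 tubular genes 13 had arrays apart in the higher direction and 6 in the lower, against 1248 and 1232 of all 13141 genes. For the 33 junction genes these counts were 7 and 4. With the chip term removed, the mean log2 value of the tubular list was 8.03 ± 0.04 (SD, n = 3) in VHL-/- KDM5C shRNA cells. It was 8.16 ± 0.01 in VHL+/+ KDM5C shRNA cells. The list also rose with VHL in SCR cells (8.09 ± 0.02 to 8.23 ± 0.03) and in PBRM1 shRNA cells (7.94 ± 0.04 to 8.18 ± 0.03). In SCR cells 4 members were called higher and 0 lower, and in PBRM1 shRNA cells 6 and 0. Of all genes 0.342% and 0.51% were called higher there, so the rise was not particular to KDM5C shRNA cells.

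STAT4, a transcription factor of cytokine signalling, had the smallest adjusted p among the rises and was 6.94, 6.91 and 7.27 on the VHL-/- arrays and 8.09, 7.81 and 8.62 on the VHL+/+ arrays (difference 1.14 ± 0.11, adjusted p = 1.91e-05). The 3 VHL-/- arrays were close to the floor of the table and all VHL+/+ arrays lay above them. TNFRSF21, the gene of death receptor 6, was 8.82, 8.84 and 8.95 on the VHL-/- arrays and 10.14, 9.92 and 9.61 on the VHL+/+ arrays (difference 1.02 ± 0.13, adjusted p = 2.39e-04), again apart. JAG1, a ligand of Notch receptors, was 7.99, 8.78 and 9.23 on the VHL-/- arrays and 10.21, 9.74 and 9.89 on the VHL+/+ arrays (difference 1.28 ± 0.29, adjusted p = 0.0244). The groups of JAG1 were apart, and its call was lost without any KDM5C shRNA array except replicate 3 of VHL-/-, at 0.94 to 1.37.

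The remaining genes of the 12 largest rises were metabolic or of less known function. HGD, an enzyme of tyrosine breakdown, rose by 1.78-fold (adjusted p = 0.00195), and C10ORF65, an enzyme of hydroxyproline breakdown now named HOGA1, by 1.88-fold (adjusted p = 8.45e-04). AIF1L, an actin-binding protein, rose by 2.02-fold (adjusted p = 0.00124) and TCEA3, a transcription elongation factor, by 1.73-fold (adjusted p = 0.0011). EFCAB4A, at 8.49, 8.70 and 8.13 on the VHL-/- arrays and 8.82, 9.58 and 9.74 on the VHL+/+ arrays, had adjusted p = 0.0464 and a difference of 0.94 ± 0.24, and it lost its call without replicate 2 or 3 of VHL+/+ or replicate 1 or 3 of VHL-/- KDM5C shRNA, at 0.69 to 0.99, and without 9 of the other 12 arrays. PRICKLE1, a planar cell polarity gene, rose by 1.72-fold (adjusted p = 3.35e-04), and with STAT4 and TNFRSF21 it was called in every setting tried apart from the other fold thresholds.

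Of 97 interferon-stimulated genes 2 were called lower (2.06%, against 0.563% of all genes) and 1 higher (1.03%, against 0.327%), with a median difference of -0.03. HERC5, the ligase that attaches ISG15 to proteins, was 9.82, 9.55 and 9.52 on the VHL-/- arrays and 8.14, 8.71 and 8.78 on the VHL+/+ arrays (difference -1.09 ± 0.25, adjusted p = 0.0244). TNFSF10, the death ligand TRAIL, was 11.46, 10.85 and 11.96 on the VHL-/- arrays and 10.79, 10.34 and 10.74 on the VHL+/+ arrays (difference -0.80 ± 0.19, adjusted p = 0.029). All VHL+/+ arrays lay below all VHL-/- arrays for both genes. Each lost its call when 1 of several KDM5C shRNA arrays was left out: replicate 1 or 3 of VHL+/+ or 1 or 2 of VHL-/- for HERC5 (-0.91 to -1.16), and replicate 2 or 3 of VHL+/+ or 1 or 3 of VHL-/- for TNFSF10 (-0.65 to -0.72).

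The same list moved further in SCR cells, where 24 of 97 members were called lower with VHL and 0 higher (median -0.35, against 0.685% of all genes called lower and 0.342% higher). MX1, an antiviral GTPase, differed by -0.31 ± 0.28 in KDM5C shRNA cells and by -1.47 in SCR cells. The latter was the largest fall of the list in SCR cells. ISG15, the ubiquitin-like modifier, differed by -0.20 ± 0.20 in KDM5C shRNA cells and by -1.07 in SCR cells. HERC5, by contrast, was called lower in all 3 backgrounds. The mean log2 value of the list with the chip term removed was 8.57 ± 0.05 (SD, n = 3) in VHL-/- and 8.51 ± 0.07 in VHL+/+ KDM5C shRNA cells. In SCR cells it was 9.17 ± 0.18 and 8.76 ± 0.08, so both KDM5C shRNA groups lay below both SCR groups. As deposited, the list mean was 8.54, 8.52 and 8.57 on the VHL-/- KDM5C shRNA arrays and 8.37, 8.44 and 8.64 on the VHL+/+ ones. It was thus lower with VHL on chip 1 and higher on chip 2. In SCR cells it was 9.22, 9.19 and 9.03 without VHL and 8.66, 8.65 and 8.92 with VHL, lower on both chips. The difference of the VHL effect, KDM5C shRNA minus SCR, was above 0 for 86 of 97 members with a median of 0.29, and 40 of 97 had an unadjusted p under 0.05, against 7.72% of all genes. After adjustment in limma 0 members passed, and for MX1 the difference was 1.16 with adjusted p = 0.463. In PBRM1 shRNA cells 2 members were called lower and 2 higher (median -0.04), with 0.51% of all genes called in each direction.

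**Figure D4:**
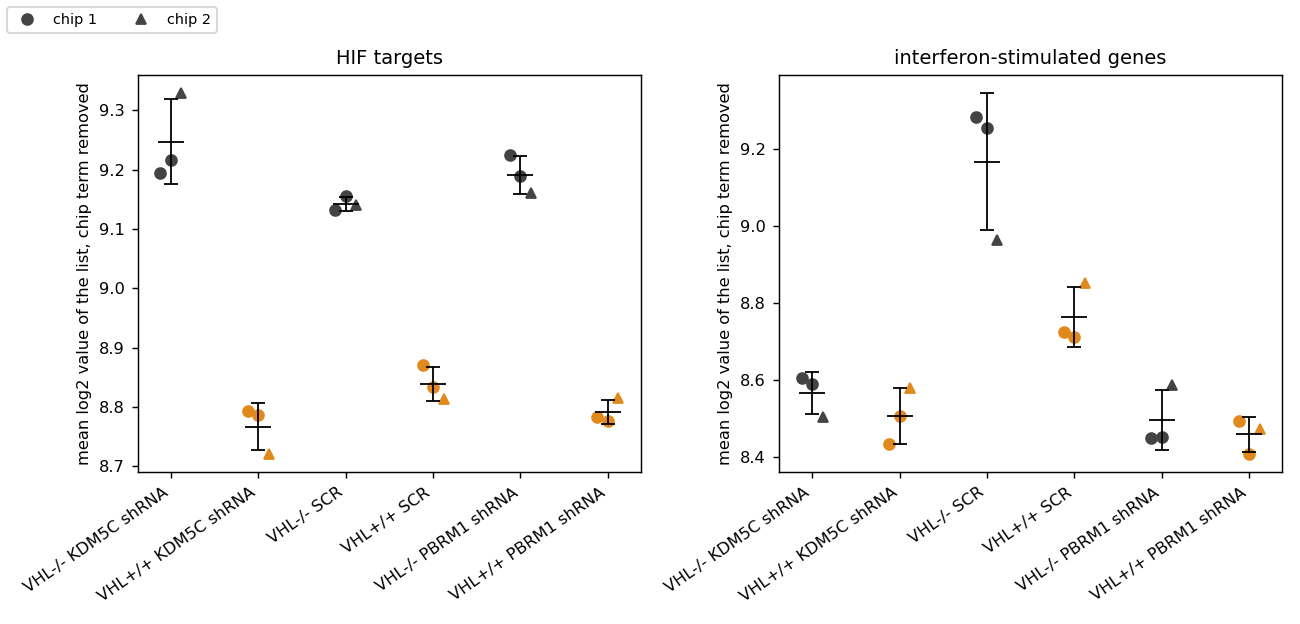
Mean log2 value of the HIF targets (left) and of the interferon-stimulated genes (right) on each of the 18 arrays after the chip term was removed (y axis), by group (x axis), with circles for chip 1, triangles for chip 2 and the mean ± SD of 3 arrays. HIF targets were lower with VHL in all 3 backgrounds, and interferon-stimulated genes were highest in VHL-/- SCR cells (9.17 ± 0.18), where the chip 2 array lay below both others.

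Across 13141 genes, which are not independent replicates, Pearson's r of the VHL differences in KDM5C shRNA cells was 0.53 with those in SCR cells and 0.64 with those in PBRM1 shRNA cells. The 3 comparisons share no arrays, but they share the chip term and the estimate of the spread. Of the 74 genes called lower here, 38 were called lower in SCR cells (51.4% of 74 and 42.2% of the 90 called there) and 48 in PBRM1 shRNA cells (64.9% of 74 and 71.6% of the 67 called there). Of the 43 called higher, 21 were called higher in SCR cells (48.8% and 46.7% of 45) and 26 in PBRM1 shRNA cells (60.5% and 38.8% of 67), and 0 genes were called in opposite directions. Of the 74 lower genes 73 had a difference below 0 in SCR cells, against 50.1% of all genes, and 74 in PBRM1 shRNA cells, against 48.4%, and HTRA1, a secreted protease, was the exception (-0.72 here, 0.06 in SCR cells). HTRA1 lost its call without replicate 3 of VHL+/+ KDM5C shRNA, at -0.57. All 43 higher genes were above 0 in both. In the 3 backgrounds together 33 genes were called lower and 18 higher, among them NDRG1, ADM, CCND1, SLC2A1, CLDN2, MMP7 and STAT4.

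For HIF targets the median difference was -0.31 in KDM5C shRNA cells, -0.16 in SCR cells and -0.22 in PBRM1 shRNA cells. In the same order 16, 9 and 14 members were called lower, against 0.563%, 0.685% and 0.51% of all genes. The difference of the VHL effect from SCR cells was below 0 for most members, with 13 of 58 above 0 and a median of -0.13, and 14 had an unadjusted p under 0.05, against 7.72% of all genes. EGLN3 differed by -1.35 ± 0.16 here, -0.51 in SCR cells and -0.98 in PBRM1 shRNA cells, and the difference from SCR cells was -0.84 ± 0.22 with adjusted p = 0.354. NDRG1 differed by -1.71 in SCR and -1.77 in PBRM1 shRNA cells. Of the genes called here and in neither other background, 21 fell and 14 rose, and all had the same sign in both others. In SCR cells 9 of the 21 and 6 of the 14 passed the adjusted p and missed the call only by the 1.5-fold threshold. The 35 genes included the HIF targets BNIP3L, ITPR1 and TGFA, the glycolytic gene PFKP, the amino acid gene CBS and the Notch ligand gene JAG1. The smallest adjusted p for a difference of these 35 from another background was 0.405, so none was shown to respond to VHL in KDM5C shRNA cells alone.

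**Figure D5:**
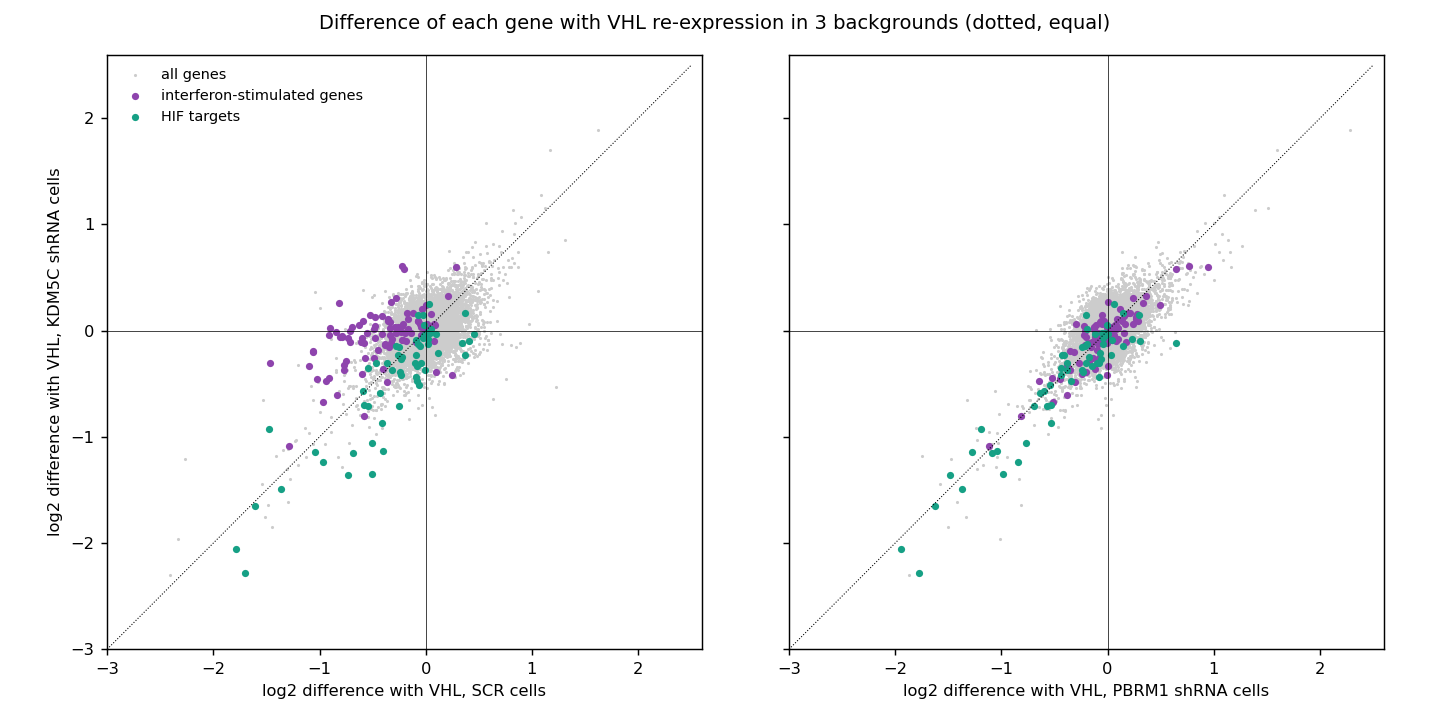
Log2 difference with VHL in KDM5C shRNA cells (y axis) against that in SCR cells (left, x axis) and PBRM1 shRNA cells (right, x axis) for 13141 genes, with the line of equal differences dotted. In the left panel 13 of 58 HIF targets (green) lie above the line and the rest below it, and many interferon-stimulated genes (purple) lie left of it in SCR cells, at a median of -0.35 there and -0.03 in KDM5C shRNA cells.

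No gene differed in its VHL effect between KDM5C shRNA and SCR cells after adjustment in limma (0 of 13141, 1014 or 7.72% at an unadjusted p under 0.05, smallest adjusted p 0.144). The same held against PBRM1 shRNA cells (0 genes, 662 or 5.04% unadjusted, smallest adjusted p 0.472). The genes with the smallest p against SCR cells were HGS, an endosomal sorting protein, CMPK1, a nucleotide kinase, the transcription factor gene TCFL5, COX15, which takes part in heme A synthesis, and HTRA1. HGS was 10.64, 10.67 and 10.78 on the VHL-/- arrays and 10.89, 11.11 and 11.03 on the VHL+/+ arrays (difference 0.31 ± 0.07 here and -0.35 in SCR cells). Against PBRM1 shRNA cells they were DPP4, the dipeptidyl peptidase CD26, C12ORF52, EAPP, C4ORF16 and ACAD8, and DPP4 was -0.16 here and 0.58 there. None of these 10 genes passed.

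Genes of cell growth gave few calls, but lists of this size hold few at the 0.89% of all genes called in either direction. Of 24 G1 cyclins, kinases and inhibitors CCND1 alone was called, while CDKN1A, the p21 inhibitor gene, was 0.47 ± 0.10 (adjusted p = 0.0205) and did not reach 1.5-fold. Of 84 DNA replication and mitosis genes 0 were called, against 0.89% of all genes, with 61 below 0 (72.6%, against 48.9% of all genes) and a median of -0.11. As deposited, the mean log2 value of this list was 9.63 to 9.65 on the VHL-/- arrays and 9.37 to 9.62 on the VHL+/+ arrays. The value of 9.37 was that of replicate 3 on chip 2, so most of the fall lay on that chip. E2F7, a repressor of the E2F family, came nearest with -0.58 ± 0.11 (adjusted p = 0.00706). Of 27 p53 targets 0 were called (median 0.00), and PMAIP1 was -0.51 ± 0.30 (adjusted p = 0.464).

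Of 37 genes of amino acid supply and ATF4, 3 were called lower (8.11%, against 0.563% of all genes) and 0 higher (median -0.12). CBS, the first enzyme of transsulfuration, was 8.84, 8.87 and 8.72 on the VHL-/- arrays and 8.07, 8.08 and 8.06 on the VHL+/+ arrays (difference -0.74 ± 0.08, adjusted p = 6.05e-05), with the groups apart. SLC7A5, a subunit of a leucine transporter, differed by -0.66 ± 0.14 (adjusted p = 0.0207) and lost its call without replicate 1 or 3 of VHL+/+ or 1 or 2 of VHL-/- KDM5C shRNA, at -0.51 to -0.68. The other called member, DDIT4, is also a HIF target.

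Metabolic genes beyond glycolysis gave few calls, and lists of their size hold few at the 0.89% of all genes called in either direction. Of 74 respiratory chain genes 0 were called, with 17 below 0, against 48.9% of all genes, and a median of 0.09, and NDUFB10 was 0.44 ± 0.12 (adjusted p = 0.053). Of 35 sterol and fatty acid synthesis genes 1 was called higher, against 0.327% of all genes, and 0 lower. Of 23 lipid storage genes 0 were called, although 4 were lower at the adjusted p alone, against 1.56% of all genes. PLIN2, which coats lipid droplets, was 10.67, 10.74 and 11.40 on the VHL-/- arrays and 9.89, 10.11 and 11.09 on the VHL+/+ arrays (difference -0.57 ± 0.12, adjusted p = 0.0142). Of 39 metallothioneins and oxidative stress genes 0 were called (median 0.03), and AKR1B10 was 0.63 ± 0.20 (adjusted p = 0.121).

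Of 61 matrix and protease genes 2, COL6A3 among them, were called lower and MMP7 and LAMA5 higher (median 0.02), 3.28% of the list each way against 0.563% and 0.327% of all genes. LAMA5, a laminin chain of basement membranes, was 7.62, 7.96 and 8.35 on the VHL-/- arrays and 8.37, 8.19 and 9.18 on the VHL+/+ arrays (difference 0.60 ± 0.15, adjusted p = 0.045), and its call was lost without any KDM5C shRNA array except replicate 2 of VHL-/-, at 0.47 to 0.65, and without 8 of the other 12 arrays. Of 40 angiogenic and vascular factors ADM, TGFA and ANGPTL4 were called lower and the axon guidance genes SEMA3A (0.74 ± 0.15, adjusted p = 0.0118) and SEMA3F (0.62 ± 0.14, adjusted p = 0.027) higher (median 0.00), against the same shares of all genes. SEMA3A lost its call without replicate 3 of either group (0.64 and 0.53), and SEMA3F without replicate 1 or 3 of VHL+/+ or 1 or 2 of VHL-/- (0.45 to 0.61). VEGFC, a lymphatic growth factor gene, lay just short of 1.5-fold at -0.58 ± 0.14 (adjusted p = 0.0282). VEGFA has no row. Of 39 histone demethylases and PBAF or BAF subunits 0 were called, against 0.89% of all genes (median 0.01), and BCL7B was 0.30 ± 0.09 (adjusted p = 0.111).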

How the data were processed

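Total RNA of 18 samples was labelled and hybridised to 1 array each. The deposited values are log2 intensities, 1 per gene and array. Per the methods, the authors ran GenomeStudio and then limma: a force-positive background correction, log2 and quantile normalization, a filter for presence at 0.05 (detection p-value), and the mean over a gene's probes. Whether a batch correction is in these values is not given in the sources used here. All arrays were used, and precision is set by their number.

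Of 13141 symbols 10777 were current in RefSeq (GRCh38.p14), 1973 were synonyms and 391 matched neither. Differences were fitted with limma 3.58.1 in R 4.3.3 to all 18 arrays. The model held 6 group terms and the chip (11 residual degrees of freedom), with empirical Bayes moderation and Benjamini-Hochberg adjustment over all genes. Group and replicate came from the labels. Calls required adjusted p under 0.05 and at least 1.5-fold. Named genes were the 12 largest called changes each way with arrays apart, set members of the HIF system, up to 4 called members or otherwise the most changed member of each of 18 gene lists, and the 5 genes with the smallest p for each difference between backgrounds. Others were named after their values were seen, and some genes that met the rule are not reported here. The comparison, members and lists were chosen with earlier results of these data known. The fit was tested on simulated data. The alternatives were a fold of 2 or none, leaving out the chip, replacing it with a replicate block, the 6 arrays of the contrast, chip 1 by itself, leaving out dim genes, median centring, cyclic loess, trended and robust moderation, and each of 18 arrays left out.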

Additional observations from a re-analysis of the deposited data

Results flagged for a closer look

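Among the 5 genes with the smallest p for each of the 2 differences between backgrounds, 6 had every VHL+/+ array on one side of every VHL-/- array in KDM5C shRNA cells after the chip term was removed and on the opposite side in another background. They were chosen for that p, and 110 of 13141 genes (0.837%) showed such opposite sides against SCR cells and 65 (0.495%) against PBRM1 shRNA cells. In limma none of these 6 genes' differences passed adjustment. HGS differed by 0.31 in KDM5C shRNA cells and by -0.35 in SCR cells (difference 0.66, adjusted p = 0.144), and COX15 by 0.34 and -0.21 (0.55, adjusted p = 0.245). CMPK1 differed by -0.21 in KDM5C shRNA cells, against 0.38 in SCR and 0.23 in PBRM1 shRNA cells, TCFL5 by -0.25 against 0.45 and 0.16, and DPP4 by -0.16 against 0.33 and 0.58. C4ORF16 differed by -0.24 and by 0.14 in PBRM1 shRNA cells. The adjusted p of the difference was 0.245 for CMPK1 and for TCFL5 and 0.37 for DPP4 against SCR cells, and against PBRM1 shRNA cells it was 0.853 for CMPK1 and C4ORF16, 0.94 for TCFL5 and 0.472 for DPP4.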

How the results depend on the processing

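The count of 74 genes called lower was 30 at a fold of 2, 205 with no fold threshold, 39 without the chip term and 33 with only the arrays of the contrast, 98 with only chip 1 and 60 to 87 with 1 array left out. The count of 43 called higher was 8, 159, 15 and 10 under the same settings, 68 with only chip 1 and 27 to 56 with 1 array left out. Among the fits with 1 array left out both counts were lowest without replicate 3 of VHL+/+ KDM5C shRNA and highest without replicate 3 of VHL-/- KDM5C shRNA. Median centring and cyclic loess left the same 117 genes called. Per the methods the values were already quantile normalized, so both settings could change little. With any array left out 44 of 74 lower and 14 of 43 higher genes remained called, and in every setting except the other fold thresholds 23 and 3 did.

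Deviations from the group means correlated between same-numbered arrays at -0.25, 0.15 and -0.46 with the chip term removed. As deposited these values were -0.05, 0.42 and 0.42. Chip 2 holds only replicate 3, so they cannot show whether the numbers pair the samples, and the main fit did not use the numbers as pairs. With a replicate block and no chip term 72 genes were called lower and 41 higher, and 111 of them were among the 117.

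Genes whose VHL effect differed from SCR cells numbered 4 with only chip 1 and 0 to 13 with 1 array left out, 13 without replicate 3 of VHL-/- SCR and 1 without replicate 3 of VHL+/+ SCR. Against PBRM1 shRNA cells the range was 0 to 1, with 1 without replicate 2 of VHL+/+ SCR. With only chip 1 the median of matrix genes was -0.017, of junction genes 0.016, of angiogenic factors -0.025 and of metallothioneins and oxidative stress genes -0.019. Without the dimmest 25% of genes it was 0.050 for junction genes and 0.18 for tubular genes. With 1 array left out the medians ranged from 0.013 to 0.040 for junction genes, -0.016 to 0.0054 for angiogenic factors and -0.030 to 0.030 for metallothioneins and oxidative stress genes. With 1 array left out the differences ranged from -0.071 to 0.035 for VHL, above 0 without replicate 1 of VHL-/- KDM5C shRNA, from -0.032 to 0.49 for EPAS1, below 0 without replicate 1 of VHL+/+ KDM5C shRNA, and from -0.14 to 0.039 for PBRM1, above 0 without the latter array (0.03) or replicate 2 of VHL-/- KDM5C shRNA. Of 1624 values of 58 named genes under 28 settings, 1439 kept their direction and side of the threshold, 165 lost a call, 16 gained one and 4 changed sign. The causes were not tested. Detection calls per array were not used, and signals close to the floor limit the size of a fall.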
